A study of Mus musculus with 22 samples.

Results

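The 47 ribosome biogenesis and MYC target genes described here are the mouse genes Myc, Polr1a, Polr1b, Polr1c, Tcof1, Fbl, Nop56, Nop58, Dkc1, Gar1, Nhp2, Nolc1, Ncl, Npm1, Ddx21, Mybbp1a, Gnl3, Utp20, Utp4, Wdr43, Heatr1, Nop14, Rrp9, Imp3, Imp4, Nat10, Rrp12, Bysl, Ltv1, Nob1, Tsr1, Nop2, Nop16, Bop1, Pes1, Wdr12, Rrp1b, Rrs1, Wdr74, Ebna1bp2, Ddx18, Noc2l, Noc3l, Ppan, Nip7, Mrto4 and Ftsj3. They were taken by name from 3 tables of normalized read counts that hold 21880, 26097 and 25676 genes, and none was chosen by its level. Utp4, listed in the tables under the older symbol Cirh1a, was matched by its gene ID and the other 46 by symbol. All 47 had a mean of at least 10 normalized counts in every table and so entered every test.

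RNA came from immature B cells of mouse spleen, sorted as B220+CD93+, in 22 libraries. Tcrd-GDL mice, in which diphtheria toxin (DTx) removes γδ T cells, were depleted with intraperitoneal toxin (15 ng per g body weight, given in 2 injections 48 h apart, cells taken 8 days after the first) or left untreated. Experiment 1 had 3 depleted and 3 untreated Tcrd-GDL libraries. Experiment 2 had 2 depleted Tcrd-GDL libraries, 3 libraries of Tcrd-H2BeGFP mice given the same toxin course (here called toxin-treated H2B) and 5 untreated Tcrd-GDL libraries. The labels do not say whether Tcrd-H2BeGFP mice carry a toxin receptor, and these libraries differ from untreated Tcrd-GDL libraries in both strain and toxin. In culture, B cells from untreated Tcrd-H2BeGFP spleens were kept with γδ T cells in 3 libraries and alone in 3. Neither the age of the mice nor the length of the culture is stated in the labels, nor whether the cells were sorted again after culture.

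Ribosomes are built in the nucleolus, where RNA polymerase I transcribes the large rRNA precursor. Box C/D and H/ACA small nucleolar ribonucleoproteins (snoRNPs) modify the precursor, and assembly factors cleave it, fold it and load ribosomal proteins to give the small and the large subunit. The transcription factor MYC binds the E-box CACGTG with its partner MAX and is known to raise genes of every step of this pathway, and lymphocytes raise MYC and the pathway together when they are activated and grow. By role, the genes comprise Myc itself, 4 genes of RNA polymerase I and its factors, 7 snoRNP genes, 5 genes of nucleolar proteins with several roles, 14 small subunit assembly genes and 16 large subunit assembly genes.

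Promoters are shown because MYC is known through the E-box in them. Windows of 300 bases, 250 before and 50 from the annotated start onward (RefSeq, GRCm38.p6), were available for 40 of the 47 genes. CACGTG, which reads the same on both strands, stood in the windows of 9 of these 40 genes (22.5%), namely Imp4, Nop2, Utp4, Ltv1, Utp20, Pes1, Mybbp1a, Tsr1 and Wdr43. Over all 27025 genes with such a window the share was 8.09%, and over the 8785 genes tested in experiment 2 it was 12.1%. Imp4, a small subunit factor that passed a test below, has the motif 121 bases before the start. Mybbp1a, a nucleolar MYB-binding protein gene, has it 40 bases after the start, and Ncl, the nucleolin gene, has none in its window. The Ncl window follows the RefSeq start and lies wholly before the gene's GENCODE M21 bounds, which begin at 86359400 on the minus strand. Sequence outside the windows, such as introns, was not searched for any gene. Mybbp1a and Ncl were picked for display after their values had been seen. The sequences run 5′ to 3′ on the gene's strand with the E-box in capitals.
Imp4, chr1:34439579-34439878, plus strand: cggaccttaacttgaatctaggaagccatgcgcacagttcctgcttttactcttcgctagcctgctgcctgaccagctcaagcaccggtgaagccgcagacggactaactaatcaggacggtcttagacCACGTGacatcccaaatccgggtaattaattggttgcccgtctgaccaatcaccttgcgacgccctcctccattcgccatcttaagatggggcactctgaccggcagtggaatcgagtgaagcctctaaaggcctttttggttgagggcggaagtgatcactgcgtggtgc
Mybbp1a, chr11:72441077-72441376, plus strand: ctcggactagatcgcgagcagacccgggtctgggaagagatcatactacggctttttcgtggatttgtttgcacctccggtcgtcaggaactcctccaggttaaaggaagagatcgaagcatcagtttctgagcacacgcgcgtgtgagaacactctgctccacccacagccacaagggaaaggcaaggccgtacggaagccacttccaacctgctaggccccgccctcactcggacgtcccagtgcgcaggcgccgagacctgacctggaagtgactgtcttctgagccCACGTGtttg
Ncl, chr1:86359406-86359705, minus strand: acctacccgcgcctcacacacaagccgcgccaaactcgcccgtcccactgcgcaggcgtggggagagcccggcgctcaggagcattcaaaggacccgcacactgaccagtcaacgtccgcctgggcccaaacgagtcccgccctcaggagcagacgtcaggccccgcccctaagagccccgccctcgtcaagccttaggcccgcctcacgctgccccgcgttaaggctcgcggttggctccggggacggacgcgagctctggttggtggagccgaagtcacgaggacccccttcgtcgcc
A match describes the letters of the window and is not a measured binding site.

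Depth per library was 9794413 to 20343954 reads for experiment 1, and it reached 22022330 to 36840455 for experiment 2 and 17505909 to 28729574 for the cultures. The summed level of 6 B cell markers lay between 42872 and 44750 normalized counts in experiment 1, between 115312 and 148373 for experiment 2 and between 50701 and 58910 for the cultures. Each table was scaled on its own, so groups were compared only within a table. Normalized counts are not divided by gene length and show no order of level between genes. The mean level of the genes in a table ranged from 125 to 4907 normalized counts (experiment 1), from 198 to 9830 (experiment 2) and from 151 to 7296 (culture), and the counting error of a median gene in a library was 4.90%, 3.41% and 4.14%. On the log2 scale, the median SD within groups was 0.187 in experiment 1, 0.123 in experiment 2 and 0.165 in culture, against 0.202, 0.201 and 0.200 for all tested genes. Ltv1, which acts in export of the small subunit precursor, varied least in experiment 1 (0.058) and experiment 2 (0.059), and Rrp9, a protein of the U3 snoRNP, varied least in culture (0.053). The widest SDs were those of Myc in experiment 1 (0.402) and of Tcof1, which encodes the RNA polymerase I cofactor treacle, in experiment 2 (0.222) and in culture (0.578). Since the labels name no mouse or culture for a library, p-values reflect only how far the libraries of a group spread, which may be technical. Log2 fold changes are differences of mean log2(value + 1), given with their SE, and each adjusted p is limma's, corrected by Benjamini-Hochberg for every gene tested in the table. A gene is said to have passed, or to have risen or fallen, where its adjusted p is under 0.05.

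**Figure D1:**
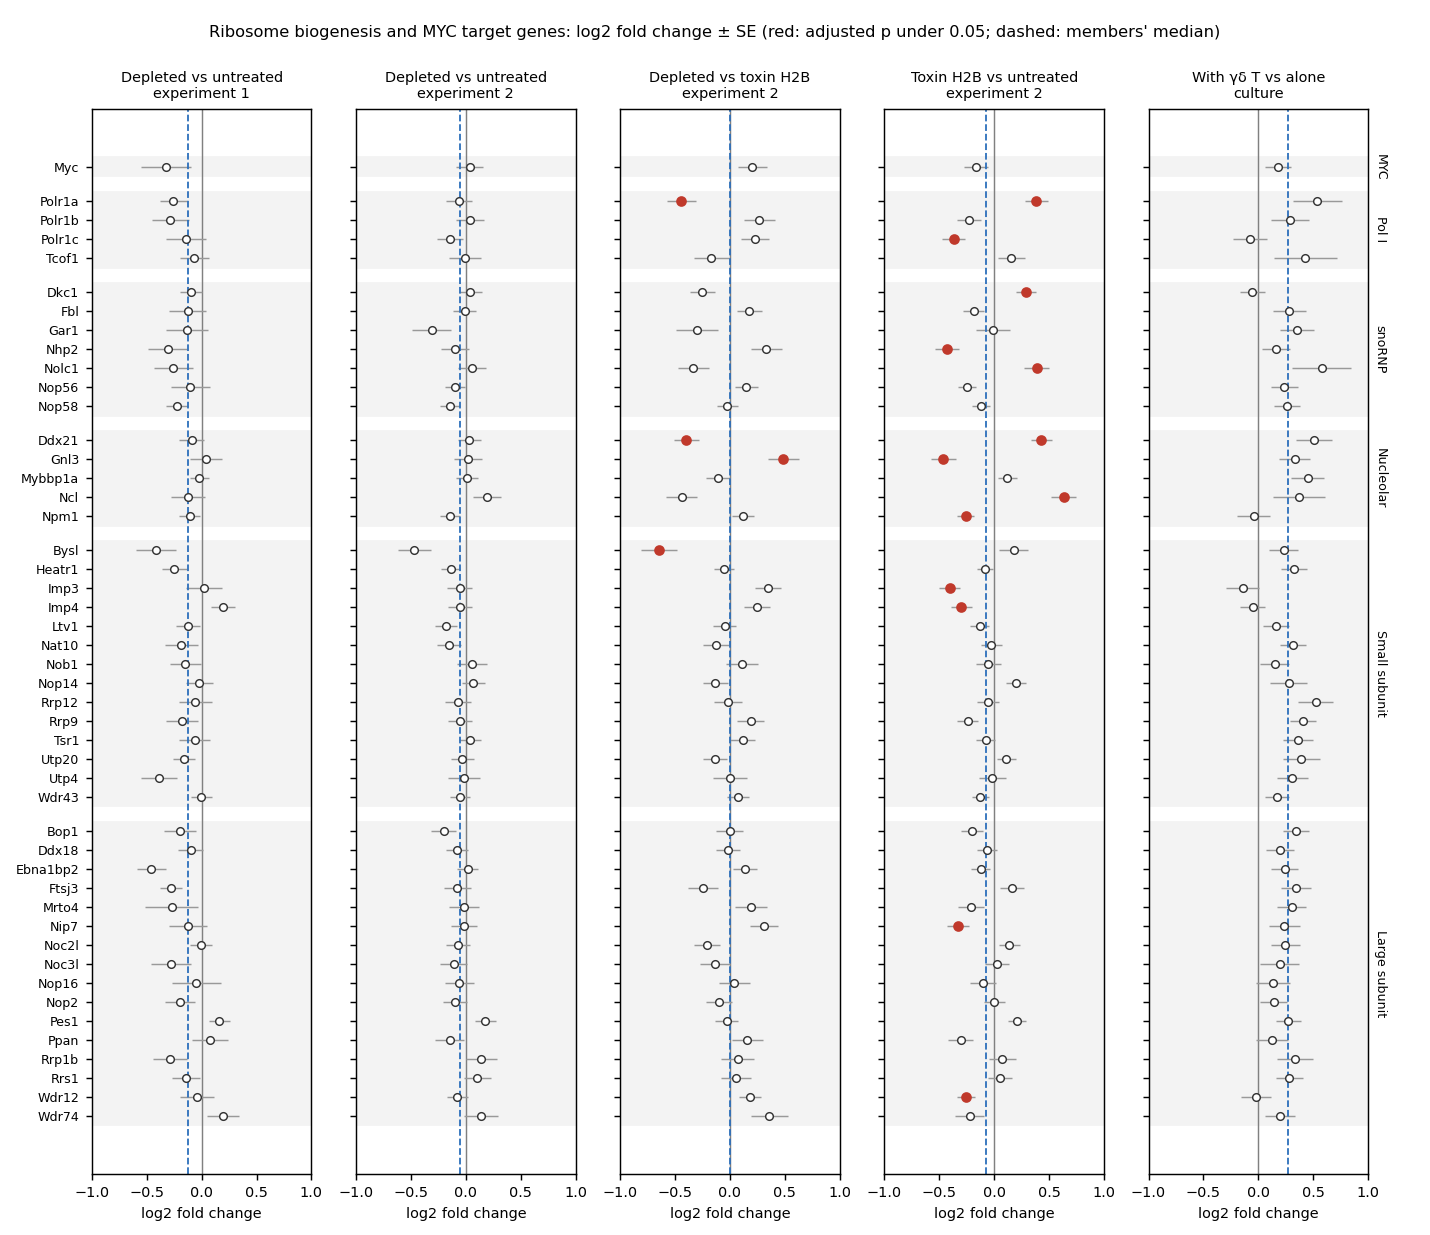
Log2 fold change (x axis, with SE as bars) of each of the 47 genes (y axis, grouped by role) in the 5 comparisons, with filled red points for an adjusted p under 0.05 and a dashed line at the median of the 47 genes. Red points stand in the panels of depleted against toxin-treated H2B (4 genes) and of toxin-treated H2B against untreated (13 genes), and in culture 41 of the 47 points lie right of 0.

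Experiment 1 asked whether these transcripts differ between B cells of depleted and of untreated Tcrd-GDL mice. Most of the genes were lower in depleted cells by small amounts, and none passed the test. The log2 fold change was negative for 41 of the 47 genes, where 52% of all tested genes were negative and 48% positive, and its median was -0.13 against -0.01 over all tested genes. Limma called 0 of the 47 genes, as it called 0 of all 11701 tested genes (0%). At an unadjusted p under 0.05 there were 5 of the 47, where all genes gave 8.83%, and edgeR and DESeq2 on the recovered reads each called 0 of the 47 (0 and 31 of all genes). Depleted and untreated libraries did not overlap for 8 of the 47 genes (6 lower and 2 higher in depleted cells), a share of 17.0%, where all tested genes gave 15.2% (7.88% lower and 7.29% higher). In bulk RNA, fewer cells of a type and less RNA per cell cannot be told apart.

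The 5 genes with the smallest p were Ebna1bp2, Ftsj3, Utp4, Nop58 and Bysl, all with lower means in depleted cells. Ebna1bp2, a large subunit assembly factor, had 301, 228 and 266 normalized counts in the 3 depleted libraries, against 350, 380 and 358 in the 3 untreated libraries. All depleted libraries lay under all untreated ones, at means of 265 ± 36.4 against 363 ± 15.7 (SD, n = 3 each) and a log2 fold change of -0.46 ± 0.13 (limma adjusted p = 0.454). Ftsj3, a methyltransferase of large subunit processing, had 416, 438 and 468 counts in depleted libraries, against 540, 543 and 520 in untreated ones (log2 -0.28 ± 0.10, limma adjusted p = 0.512). Nop58, a core protein of box C/D snoRNPs, had 644, 597 and 569 counts in depleted libraries, against 687, 687 and 740 in untreated ones (log2 -0.22 ± 0.10, limma adjusted p = 0.558). For these 2 genes as well the groups did not overlap.

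Utp4, a subunit of the small subunit processome, had 194, 142 and 194 counts in depleted libraries, against 221, 211 and 259 in untreated ones (log2 -0.39 ± 0.16, limma adjusted p = 0.543). Bysl, which encodes the small subunit factor bystin, had 254, 149 and 179 counts in depleted libraries, against 248, 274 and 240 in untreated ones (log2 -0.42 ± 0.19, limma adjusted p = 0.564). Its first depleted library lay among the untreated ones. Myc had 774, 361 and 602 counts in depleted libraries, against 748, 666 and 664 in untreated ones (log2 -0.33 ± 0.23, limma adjusted p = 0.685). Depleted replicate 1 had the highest and depleted replicate 2 the lowest Myc count of the 6 libraries.

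That library stood apart over the genes as a whole. Set against the mean of the untreated libraries, the median over the 47 genes was 0.08, -0.26 and -0.19 on the log2 scale in depleted replicates 1, 2 and 3, and 0.02, 0.02 and -0.05 in the untreated ones. Depleted replicate 1 also had the largest share of reads on the most abundant RNA of the table, Gm23935 (28.7%, where the other 5 libraries had 16.1% to 20.4%), and its part in the result was not tested. Without that library limma called 10 of the 47 genes, all lower, and 1097 of the 11701 tested genes (9.38%). The 10 were Myc, Polr1b of RNA polymerase I, the snoRNP genes Fbl, Nop56 and Nhp2, the small subunit genes Bysl, Heatr1 and Nat10, and the large subunit genes Ebna1bp2 and Noc3l, and the median of the 47 was then -0.24. Without depleted replicate 2, in contrast, it was -0.050 and limma called 0 of the 47. Of 15 proliferation genes 14 had a negative fold change with all libraries in, with a median of -0.43, 4 at an unadjusted p under 0.05 and none past limma's threshold. Their summed level was 3913 to 6246 normalized counts in depleted libraries, against 5868 to 5966 in untreated ones. All 5 tested macrophage and monocyte markers had a negative fold change (median -0.87, 3 at an unadjusted p under 0.05), at a summed level of 202 to 318 normalized counts in depleted libraries against 284 to 640 in untreated ones. All 7 tested T cell markers did as well (median -0.52, 1 at an unadjusted p under 0.05), at 214 to 382 normalized counts in depleted libraries against 339 to 394 in untreated ones. Limma called no marker of either list, no gene of these lists was at 0 throughout a group, and the part of proliferation or of these cells in the difference was not tested.

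**Figure D2:**
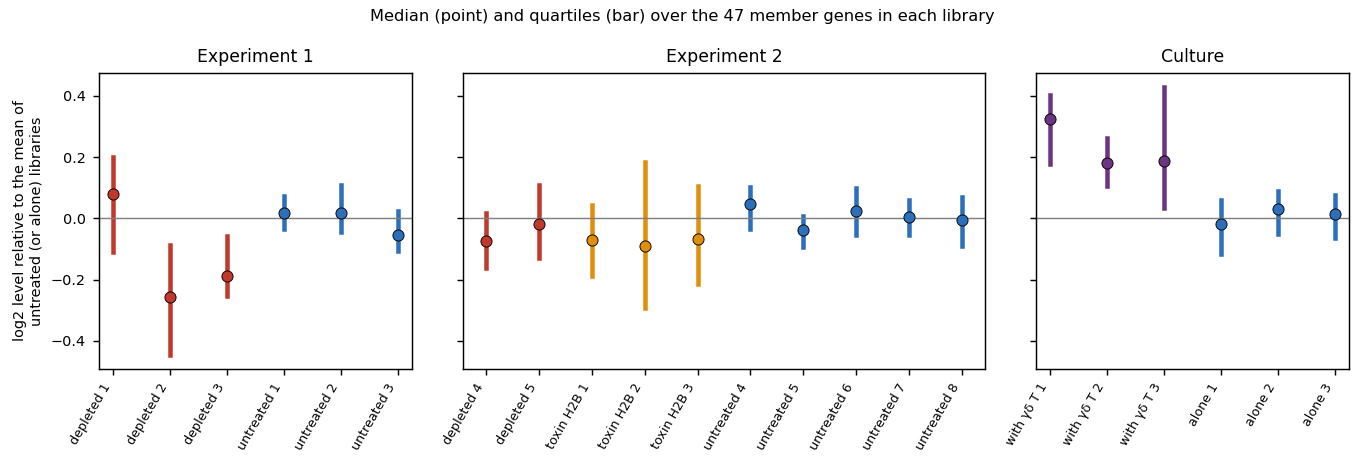
For each library (x axis), the median (point) and quartiles (bar) over the 47 genes of the log2 level relative to the mean of the untreated libraries, or of the cultures kept alone (y axis). Depleted replicate 1 of experiment 1 lies at 0.08 while the other 2 depleted libraries lie at -0.26 and -0.19, and the 3 cultures with γδ T cells lie at 0.18 to 0.32.

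Of 76 ribosome biogenesis genes outside the 47, 48 had a negative fold change, with a median of -0.06, and 3 had an unadjusted p under 0.05. Of 29 tested MYC targets outside ribosome assembly, such as genes of metabolism and translation, 26 had a negative fold change, with a median of -0.17, and 5 had an unadjusted p under 0.05. Limma called no gene of either list. None of 9 tested genes of the MAX network, which holds MYC's partner and its antagonists, had an unadjusted p under 0.05.

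Depletion was repeated in experiment 2. Again none of the 47 genes passed in depleted against untreated Tcrd-GDL cells, while 40 of 13364 tested genes did (0.299%). Only Bysl had an unadjusted p under 0.05, where 9.79% of all genes did, and edgeR and DESeq2 called 0 of the 47. The log2 fold change was negative for 31 genes and positive for 16, where all genes gave 50.5% and 49.5%, with a median of -0.05 against -0.00 over all tested genes. Groups did not overlap for 6 genes (5 lower and 1 higher in depleted cells), or 12.8%, where all genes gave 12.3% (6.56% lower and 5.78% higher).

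Bysl had 262 and 379 normalized counts in the 2 depleted libraries, against 485, 463, 412, 374 and 460 in the 5 untreated ones. Depleted replicate 4 was lower than every untreated library and depleted replicate 5 lay just above the lowest of them, at means of 321 ± 82.7 (SD, n = 2) against 439 ± 45.1 (SD, n = 5) and a log2 fold change of -0.47 ± 0.15 (limma adjusted p = 0.257). Without depleted replicate 5, which leaves 1 depleted library assumed to vary like the other groups, Bysl was called lower (log2 -0.74, limma adjusted p = 0.0218), and 580 of all tested genes were called (4.34%). Ltv1 had 742 and 722 counts in depleted libraries, against 899, 850, 806, 788 and 813 in untreated ones (log2 -0.18 ± 0.10, limma adjusted p = 0.573). Pes1, of the PeBoW complex of large subunit assembly, had 1697 and 1843 counts in depleted libraries, against 1669, 1462, 1465, 1558 and 1679 in untreated ones (log2 0.18 ± 0.10, limma adjusted p = 0.580). Both depleted libraries lay outside the untreated range for Ltv1 and for Pes1, at opposite ends.

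Bop1, a partner of Pes1 in the same complex, had 763 and 715 counts in depleted libraries, against 888, 803, 943, 856 and 773 in untreated ones (log2 -0.20 ± 0.11, limma adjusted p = 0.590). Gar1, a core H/ACA protein, had 150 and 182 counts in depleted libraries, against 183, 184, 183, 234 and 253 in untreated ones (log2 -0.31 ± 0.18, limma adjusted p = 0.600). Their depleted libraries lay under all untreated libraries, for Gar1 by less than 1 count at the nearest. Myc had no call, at 1033 and 1073 counts in depleted libraries against 955, 878, 1026, 1055 and 1254 in untreated ones (log2 0.04 ± 0.12, limma adjusted p = 0.956). Of 76 other ribosome biogenesis genes 45 had a negative fold change (median -0.03, 2 at an unadjusted p under 0.05). Of 30 MYC targets outside ribosome assembly 29 had a negative one (median -0.12, 4 at an unadjusted p under 0.05), and limma called none of either list. In the MAX network 7 of 10 tested genes had a positive fold change and none passed. Mycl was the 1 at an unadjusted p under 0.05 (log2 1.53 ± 0.49, limma adjusted p = 0.250). Among 15 proliferation genes the cell cycle marker Mki67 fell (log2 -1.53 ± 0.28, limma adjusted p = 0.0288), and the list's summed level was 8325 to 8576 normalized counts in depleted libraries, against 8819 to 10008 in untreated ones. Of 12 T cell markers 6 had a positive and 6 a negative fold change, and of 5 macrophage and monocyte markers 3 and 2. Both tested neutrophil markers were lower in depleted cells at an unadjusted p under 0.05. Their list summed to 4.66 to 6.58 normalized counts in depleted libraries, against 13.4 to 123 in untreated ones. Of 3 dendritic cell markers 2 had an unadjusted p under 0.05, as had 2 of 5 NK cell markers. Limma called no marker of these lists, and their part was not tested.

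The largest number of calls came from toxin-treated H2B against untreated Tcrd-GDL cells, a comparison in which strain and toxin cannot be told apart. Of the 47 genes 13 passed (27.7%), 5 higher and 8 lower in toxin-treated H2B cells, where 15.7% of all 13364 tested genes passed, 7.32% higher and 8.34% lower. The median log2 fold change was -0.08 against 0.00 over all tested genes, with 17 positive and 30 negative, where all genes gave 50.1% and 49.9%. Calls fell on 4 of the 5 genes of nucleolar proteins with several roles, 3 of 7 snoRNP genes, 2 of 4 RNA polymerase I genes, 2 of 14 small subunit genes and 2 of 16 large subunit genes. Groups did not overlap for 16 of the 47 genes (34.0%; 6 higher and 10 lower), where 23.4% of all genes did not (11.6% higher and 11.7% lower).

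Within the nucleolar group the changes went both ways. Ncl, which encodes nucleolin, an abundant RNA-binding protein of rRNA transcription and processing (chr1:86344719-86359400, minus strand, GRCm38), had 7466, 9020 and 8851 normalized counts in toxin-treated H2B libraries, against 5386, 5130, 4540, 5482 and 6784 in untreated ones. All 3 toxin-treated H2B libraries lay above every untreated one, at means of 8446 ± 852 (SD, n = 3) against 5464 ± 824 (SD, n = 5), and Ncl rose with a log2 fold change of 0.64 ± 0.11 (limma adjusted p = 0.0046). Ddx21, an RNA helicase that acts in RNA polymerase I transcription and rRNA processing (chr10:62580251-62602281, minus strand), had 2906, 3420 and 3388 counts in toxin-treated H2B libraries, against 2553, 2336, 2186, 2390 and 2530 in untreated ones. It rose by a log2 fold change of 0.43 ± 0.09 (limma adjusted p = 0.0087), again with no overlap. Gnl3, the gene of the nucleolar GTPase nucleostemin (chr14:31012433-31019152, minus strand), had 724, 742 and 672 counts in toxin-treated H2B libraries, against 914, 1012, 1098, 1105 and 818 in untreated ones. It fell, with means of 713 ± 35.9 (SD, n = 3) against 989 ± 123 (SD, n = 5) and a log2 fold change of -0.46 ± 0.11 (limma adjusted p = 0.0154). Npm1, which encodes the abundant nucleolar chaperone nucleophosmin, had 9308, 8072 and 9088 counts in toxin-treated H2B libraries, against 10686, 10239, 10764, 10789 and 10241 in untreated ones. It fell by the smaller log2 fold change of -0.26 ± 0.08 (limma adjusted p = 0.0369) and without overlap. Nucleolin and nucleophosmin transcripts thus changed in opposite directions with the deposited scaling. With libraries scaled to total reads Npm1 changed sign, as given below.

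Genes of a shared enzyme or particle also parted. Polr1a, the largest subunit of RNA polymerase I, had 1123, 1524 and 1242 counts in toxin-treated H2B libraries, against 942, 1063, 909, 1030 and 989 in untreated ones, and rose (log2 0.38 ± 0.10, limma adjusted p = 0.0228). Polr1c, a subunit shared by RNA polymerases I and III, had 571, 508 and 501 counts in toxin-treated H2B libraries, against 702, 678, 711, 736 and 581 in untreated ones, and fell (log2 -0.37 ± 0.10, limma adjusted p = 0.0266). Neither gene's groups overlapped, though the nearest libraries of Polr1c were 571 and 581. Among H/ACA proteins, Dkc1, the pseudouridine synthase dyskerin, had 1214, 1257 and 1289 counts in toxin-treated H2B libraries, against 1106, 945, 1004, 1043 and 1032 in untreated ones, and rose (log2 0.29 ± 0.09, limma adjusted p = 0.0424). Nhp2, a core protein of the same particle, had 881, 874 and 974 counts in toxin-treated H2B libraries, against 1320, 1288, 1411, 1190 and 958 in untreated ones, and fell (log2 -0.43 ± 0.11, limma adjusted p = 0.0188). Untreated replicate 8 lay within the toxin-treated H2B range for Nhp2. Nolc1, a chaperone of snoRNPs, had 640, 849 and 615 counts in toxin-treated H2B libraries, against 558, 509, 490, 514 and 581 in untreated ones, and rose (log2 0.39 ± 0.11, limma adjusted p = 0.0314).

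Subunit assembly genes that passed all fell. Imp3 and Imp4, a pair of proteins of the small subunit processome, had 493.1, 494.7 and 529.3 counts (Imp3) and 1062, 900 and 987 counts (Imp4) in toxin-treated H2B libraries. Untreated libraries had 671, 652, 723, 643 and 660 counts of Imp3 and 1141, 1303, 1221, 1097 and 1284 counts of Imp4. Neither gene overlapped, and the log2 fold changes were -0.40 ± 0.10 for Imp3 (limma adjusted p = 0.0136) and -0.30 ± 0.10 for Imp4 (limma adjusted p = 0.0446), the gene whose E-box window is printed above. Nip7, a large subunit factor, had 745, 645 and 690 counts in toxin-treated H2B libraries, against 846, 907, 945, 944 and 727 in untreated ones (log2 -0.33 ± 0.10, limma adjusted p = 0.0394), with untreated replicate 8 again inside the toxin-treated H2B range. Wdr12, the partner of Pes1 and Bop1, had 994, 908 and 940 counts in toxin-treated H2B libraries, against 1087, 1132, 1200, 1184 and 1068 in untreated ones (log2 -0.26 ± 0.08, limma adjusted p = 0.0438). Pes1 and Bop1 themselves did not pass. Myc did not pass, at 916, 854 and 980 counts in toxin-treated H2B libraries against 955, 878, 1026, 1055 and 1254 in untreated ones (log2 -0.17 ± 0.11, limma adjusted p = 0.304). E-box windows were held by 0 of the 5 genes that rose, 1 of 7 that fell and had a window, and 8 of 28 that did not pass.

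**Figure D3:**
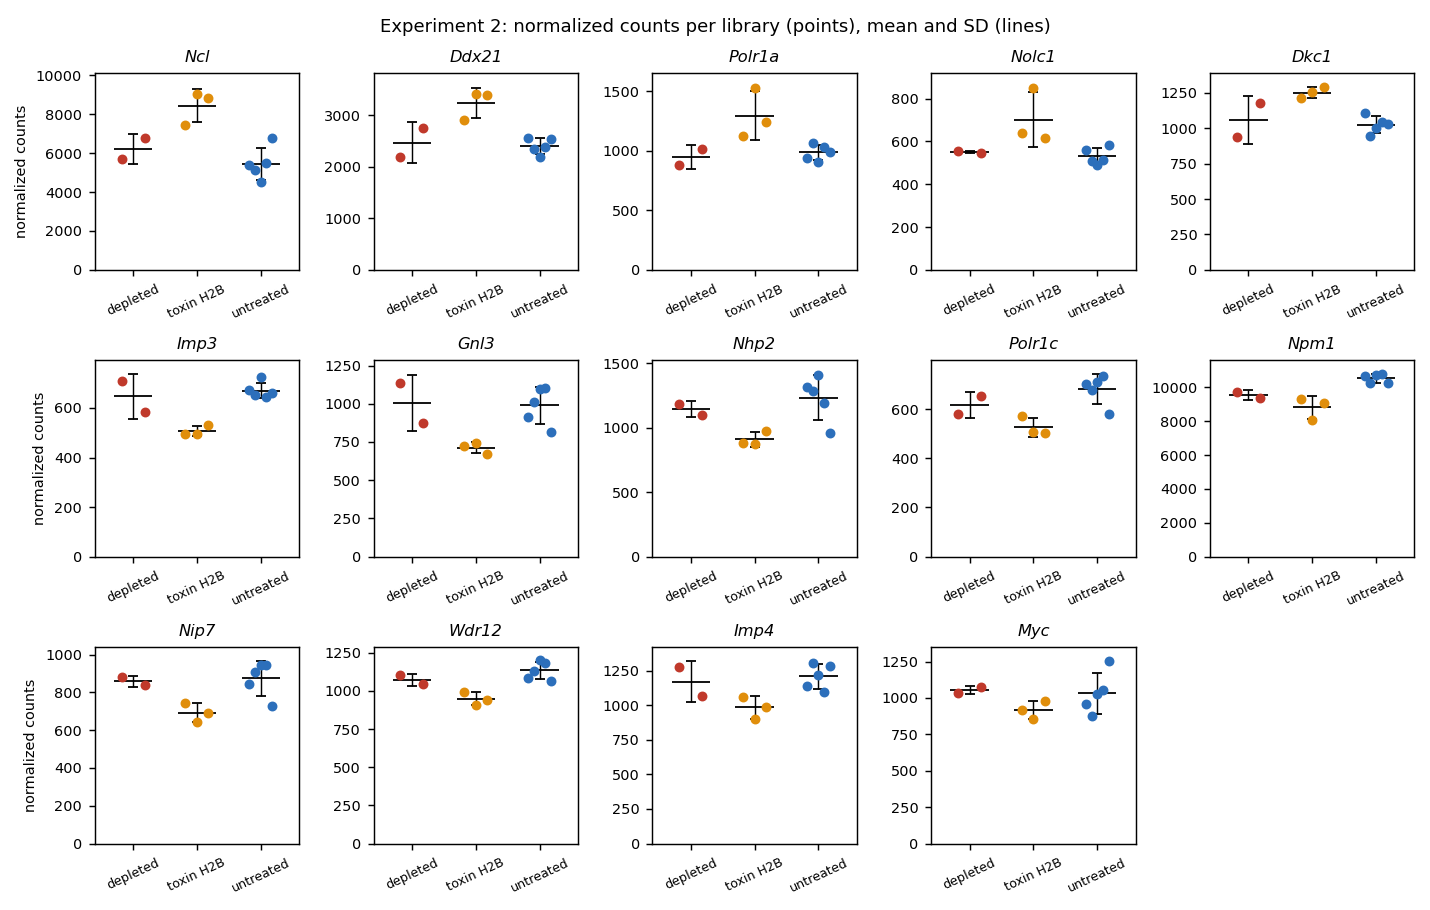
Normalized counts (y axis, from 0) in each library of experiment 2 (points) for the 13 genes that passed in toxin-treated H2B against untreated cells and for Myc, with the mean and SD as lines, by group (x axis). Ncl in toxin-treated H2B cells lies at 7466 to 9020, above untreated cells at 4540 to 6784, while Gnl3 in toxin-treated H2B cells lies at 672 to 742, under untreated cells at 818 to 1105.

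The directions of these calls depended on how libraries were scaled. With libraries scaled to their total reads, the median of all genes moved to 0.35 in toxin-treated H2B against untreated cells. Then 14 of the 47 genes passed, 14 higher and 0 lower, beside 5 higher and 8 lower with the deposited scaling. That was 29.8% of the 47, under the 36% of all tested genes that passed with this scaling. With the deposited scaling the share of the 47 was above that of all genes (27.7% against 15.7%). Of the 13 called with the deposited scaling 5 remained, and Npm1, Nip7, Wdr12 and Imp4 changed sign. Relative to the median of all genes, that of the 47 was -0.08 with either scaling. The reads behind the scaling differed, since the mitochondrial rRNA mt-Rnr2 took 14.5% to 17.9% of reads in toxin-treated H2B libraries, against 20.6% to 25.2% in untreated ones. Left out in turn, toxin-treated H2B replicate 2 gave 1 call (Ncl), where 1.47% of all genes were called, and toxin-treated H2B replicate 3 gave 5, where 6.03% were. Without untreated replicates 4, 5, 6 and 7 there were 8, 6, 4 and 6 calls. These were 17%, 12.8%, 8.51% and 12.8% of the 47, where all genes gave 11%, 9.71%, 7.54% and 9.22%.

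Length moved with the fold change in this comparison and in others. Length here is that of the merged exons of all annotated transcripts of a gene, which can exceed the length of a single mRNA. Over the 13261 tested genes with a merged exon length in GENCODE M21, Spearman's rho between length and log2 fold change was 0.30, and over the 47 genes it was 0.26, as a description across genes of the same libraries, which are not independent. Among 10 classes of equal gene number ordered by length, the shortest (median 377 bases) had a median log2 fold change of -0.20 and the longest (median 11804 bases) one of 0.17. Among the 47, those that rose had a median merged exon length of 5177 bases (3971 to 11871) and those that fell 2898 bases (924 to 11955). Ncl has 10188 bases of merged exons and Polr1a 11871, whereas Imp3 has 924 in a single exon and Nhp2 1146. Wdr12 at 11955 bases and Imp4 at 8553 bases fell despite a long merged exon length. The annotated exons of both overlap those of a neighbour (Carf and Gm28306). In depleted against toxin-treated H2B cells rho was -0.31 over all genes and -0.27 over the 47. In culture it was 0.03 over all genes and 0.39 over the 47. In depleted against untreated cells it was -0.09 over all genes and 0.11 over the 47 in experiment 2, and -0.07 and -0.02 in experiment 1. The part of length in the calls was not tested.

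**Figure D4:**
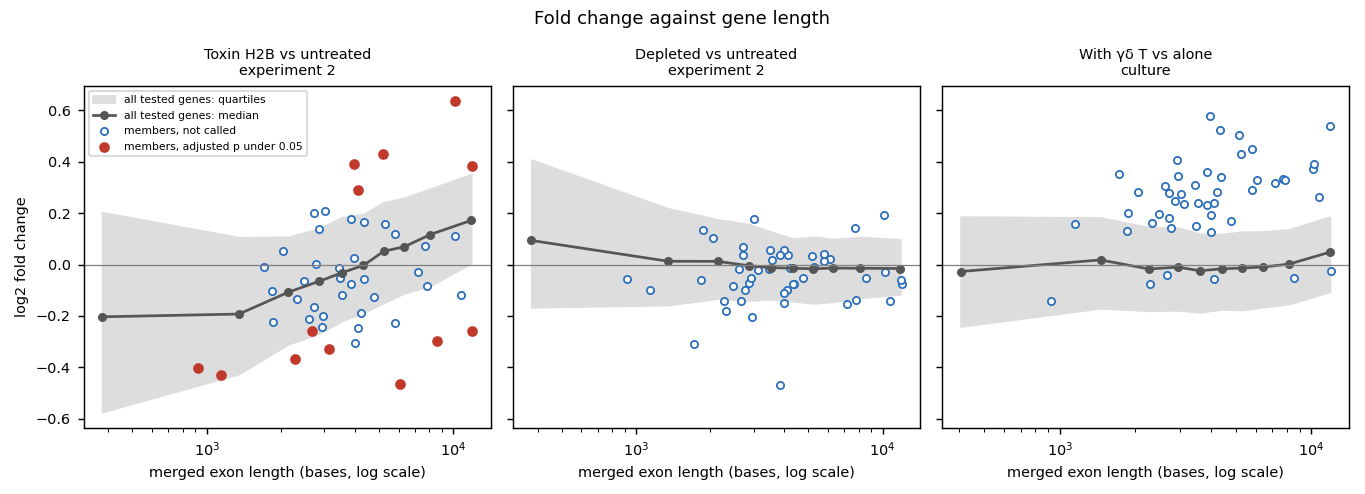
Log2 fold change (y axis) against merged exon length in bases (x axis, log scale) for the 47 genes (points, red where the adjusted p was under 0.05) and for all tested genes in 10 classes of length (line at the median, band at the quartiles). In toxin-treated H2B against untreated cells the median of all genes goes up with length, with values of -0.20 in the shortest class and 0.17 in the longest, and in culture with γδ T cells most of the 47 genes lie above a flat line.

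Strand use in counting is not stated, so the calls of genes whose exons overlap another gene are less certain. These include Polr1a (Gm26628), Dkc1 (Mpp1), Nhp2 (Rmnd5b) and Gnl3 (Pbrm1). Bysl, called in depleted against toxin-treated H2B cells below, overlaps Ccnd3 on the opposite strand, and the same limit holds for it in every comparison. Ncl and Gnl3 also host 3 small nucleolar RNA genes each within their bounds. Snord82, hosted by Ncl, averaged 62.6 normalized counts in toxin-treated H2B libraries, against 68.0 in untreated ones (log2 -0.06 ± 0.27, limma adjusted p = 0.902). It averaged 142 in depleted libraries and was higher there than in toxin-treated H2B ones (log2 1.13 ± 0.33, limma adjusted p = 0.0451). In depleted against untreated cells it did not pass, at log2 1.07 ± 0.31 in experiment 2 (limma adjusted p = 0.186) and 0.80 ± 0.36 in experiment 1 (limma adjusted p = 0.564). In toxin-treated H2B against untreated cells Snord19, hosted by Gnl3, had a log2 fold change of -0.11 ± 0.41 (limma adjusted p = 0.879).

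Some markers of B cells and of other cells differed in the toxin-treated H2B group. Of 6 B cell markers 3 had a positive and 3 a negative fold change, with a median of -0.02, and 2 rose. They were Cd93, 1 of the markers that define the sorted cells (log2 0.81 ± 0.13, limma adjusted p = 0.0023), and Ptprc, which encodes CD45 and its B220 form (log2 0.41 ± 0.10, limma adjusted p = 0.0163). Of 12 T cell markers 6 rose and all 12 were positive, with a summed level of 1549 to 2537 normalized counts in toxin-treated H2B libraries, against 700 to 2018 in untreated ones. Of 5 tested markers of macrophages and monocytes 1 rose, at a summed level of 1067 to 1526 in toxin-treated H2B libraries against 618 to 1406 in untreated ones. Of 5 NK cell markers 1 rose, at 273 to 405 in toxin-treated H2B libraries against 131 to 448 in untreated ones. All 3 tested erythroid markers had a negative fold change (median -1.21) and none passed. Their list summed to 199 to 1308 in toxin-treated H2B libraries, against 659 to 1855 in untreated ones. Of the 15 proliferation genes 3 rose and 1 fell, at a summed level of 9784 to 11166 normalized counts in toxin-treated H2B libraries, against 8819 to 10008 in untreated ones. The part of these markers and of proliferation in the calls was not tested.

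The rest of the pathway gave calls in both directions in this comparison as well. Of the 76 other ribosome biogenesis genes 3 rose and 13 fell, with a median of -0.05, and Nop10, the smallest H/ACA core protein, fell by a log2 fold change of -0.80 ± 0.14 (limma adjusted p = 0.0047). MYC targets outside ribosome assembly gave 1 rise and 9 falls among 30, with a median of -0.20, among them Hspe1, a mitochondrial co-chaperonin (-0.79 ± 0.13), and Ran, the GTPase of nuclear transport (-0.52 ± 0.11). In the MAX network 3 of 10 tested genes rose, namely the MYC antagonists Mxd1 (0.47 ± 0.12), Mxd4 (0.36 ± 0.10) and Mga (0.31 ± 0.08), while MAX itself was at -0.04 ± 0.09 and did not pass.

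Set against the same toxin-treated H2B libraries, depleted Tcrd-GDL cells gave 4 calls among the 47 genes (8.51%), 1 higher and 3 lower, where 9.07% of all tested genes were called, 4.58% higher and 4.49% lower. The share is close to that of all genes. The toxin-treated H2B libraries are shared with the comparison above, so the values are given side by side. Gnl3 had 1134 and 877 normalized counts in depleted libraries, against 724, 742 and 672 in toxin-treated H2B ones, at means of 1005 ± 182 (SD, n = 2) and 713 ± 35.9 (SD, n = 3), and was higher in depleted cells (log2 0.49 ± 0.14, limma adjusted p = 0.0450). Bysl had 262 and 379 counts in depleted libraries, against 509, 525 and 450 in toxin-treated H2B ones, at means of 321 ± 82.7 (SD, n = 2) and 495 ± 39.5 (SD, n = 3), and was lower (log2 -0.65 ± 0.17, limma adjusted p = 0.0267). Both genes' groups did not overlap, and Bysl was the 1 called gene that had not passed in toxin-treated H2B against untreated cells.

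Ddx21 had 2186 and 2749 counts in depleted libraries, against 2906, 3420 and 3388 in toxin-treated H2B ones (log2 -0.40 ± 0.12, limma adjusted p = 0.0441). Polr1a had 878 and 1017 counts in depleted libraries, against 1123, 1524 and 1242 in toxin-treated H2B ones (log2 -0.44 ± 0.13, limma adjusted p = 0.0443). For both, the depleted libraries lay under all toxin-treated H2B libraries. Myc had 1033 and 1073 counts in depleted libraries, against 916, 854 and 980 in toxin-treated H2B ones (log2 0.20 ± 0.13, limma adjusted p = 0.344). The median of the 47 was -0.00, as over all genes, with 23 positive and 24 negative where all genes gave 49.8% and 50.2%, and groups did not overlap for 26 of them (16 higher and 10 lower in depleted cells), or 55.3%, where all genes gave 42.1% (21.1% higher and 20.9% lower).

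These 4 calls were close to the threshold. A fit of the 2 groups alone gave 0 calls, where 3.37% of all tested genes were called. Without toxin-treated H2B replicates 1, 2 and 3 there were 2, 0 and 1 calls, where all genes gave 7.14%, 1.77% and 4.12%. Leaving out a depleted library left 1 in its group. The median of the 47 was then 0.042 (without replicate 4) and -0.010 (without replicate 5). With libraries scaled to total reads, the median of all genes moved to -0.38. Then 18 of the 47 genes passed, 0 higher and 18 lower, beside 1 higher and 3 lower with the deposited scaling. That was 38.3% of the 47, where 28.2% of all tested genes passed. T cell markers were lower for 12 of 12 genes, 3 of them past the threshold, at 838 to 1060 normalized counts summed in depleted libraries against 1549 to 2537 in toxin-treated H2B ones. Of 15 proliferation genes 3 were called lower, Mki67 by a log2 fold change of -2.27 ± 0.30 (limma adjusted p = 0.000693). Of 6 B cell markers 2 were called lower, Cd93 (-0.86 ± 0.16, limma adjusted p = 0.0060) and Ptprc (-0.50 ± 0.13, limma adjusted p = 0.0254). Of 5 macrophage and monocyte markers 2 were called lower (Itgam and Lyz2), at 532 to 829.2 normalized counts summed in depleted libraries against 1067 to 1526 in toxin-treated H2B ones. All 5 NK cell markers had a negative fold change and Nkg7 was called lower, at 87.7 to 185 summed in depleted libraries against 273 to 405 in toxin-treated H2B ones. The part of any of these lists in the calls was not tested. Of the 76 other ribosome biogenesis genes 5 were higher and 2 lower, among them Taf1d, a subunit of the RNA polymerase I selectivity factor, at 0.79 ± 0.16 (limma adjusted p = 0.0107). The D-type cyclin gene Ccnd2 (-0.88 ± 0.21) and the pyrimidine synthesis gene Cad (-0.46 ± 0.13) were the 2 lower of the 30 other MYC targets. Of 10 tested MAX network genes 3 had a positive and 7 a negative fold change, and 1 was called, Mga, which was lower (-0.37 ± 0.10, limma adjusted p = 0.0352).

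Culture asked the reverse question, whether adding γδ T cells changes immature B cells. Here 41 of the 47 genes had a positive log2 fold change in cells kept with γδ T cells, where 49.2% of all tested genes did and 50.8% were negative, and the median was 0.28 against -0.00 over all tested genes. None passed. Limma called 0 of the 47 genes, where it called 267 of 12386 tested genes (2.16%), and edgeR and DESeq2 called 0 of the 47. At an unadjusted p under 0.05 there were 17 of the 47, where all genes gave 12.6%. All libraries with γδ T cells lay above all libraries alone for 22 of the 47 genes (46.8%) and under them for 0, where groups did not overlap for 18.4% of all genes, 7.94% higher and 10.4% lower. Scaling to total reads left the median of the 47 at 0.28 above that of all genes.

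By role the median log2 fold changes were 0.36 for the 4 RNA polymerase I genes, 0.26 for the 7 snoRNP genes, 0.37 for the 5 genes of nucleolar proteins, 0.30 for the 14 small subunit genes and 0.24 for the 16 large subunit genes. Ncl, of the nucleolar group, had 3908, 4022 and 8440 counts with γδ T cells, against 3602, 4312 and 3935 alone. Tcof1, of the RNA polymerase I group, had 961, 1041 and 2442 counts with γδ T cells, against 812, 958 and 1284 alone. For both, only replicate 3 with γδ T cells lay above all libraries alone. Ncl and Tcof1 were picked here after their values had been seen. The groups did not overlap for 10 of the 14 small subunit genes and 7 of the 16 large subunit genes, against 2 of the 5 nucleolar genes, 2 of the 7 snoRNP genes, 0 of the 4 RNA polymerase I genes, and nor did they for Myc. The 6 genes with a negative fold change were Imp3, Polr1c, Dkc1, Imp4, Npm1 and Wdr12, between -0.14 and -0.02.

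Of the 5 genes with the smallest p, Rrp9, a U3 snoRNP protein of small subunit processing, was the most even. It had 435, 411 and 425 normalized counts with γδ T cells, against 333, 321 and 305 alone, at means of 423 ± 11.9 against 320 ± 13.8 (SD, n = 3 each) and a log2 fold change of 0.41 ± 0.12 (limma adjusted p = 0.119). Rrp12, whose yeast counterpart acts in export of both subunit precursors, had 385, 367 and 459 counts with γδ T cells, against 228, 299 and 320 alone (log2 0.52 ± 0.16, limma adjusted p = 0.124). Bop1 had 520, 552 and 504 counts with γδ T cells, against 405, 424 and 410 alone (log2 0.35 ± 0.12, limma adjusted p = 0.187). In these 3 genes each library with γδ T cells exceeded each library alone.

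Ddx21 had 1370, 1225 and 1998 counts with γδ T cells, against 969, 1111 and 1090 alone (log2 0.50 ± 0.16, limma adjusted p = 0.167). Mybbp1a, whose promoter window is printed above, had 1363, 1446 and 1964 counts with γδ T cells, against 1015, 1285 and 1161 alone (log2 0.45 ± 0.15, limma adjusted p = 0.184). In both genes replicate 3 with γδ T cells was far above the other libraries. Myc was higher by a small amount, at 487, 441 and 457 counts with γδ T cells against 404, 415 and 400 alone, and did not pass although the groups did not overlap (log2 0.18 ± 0.12, limma adjusted p = 0.592).

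**Figure D5:**
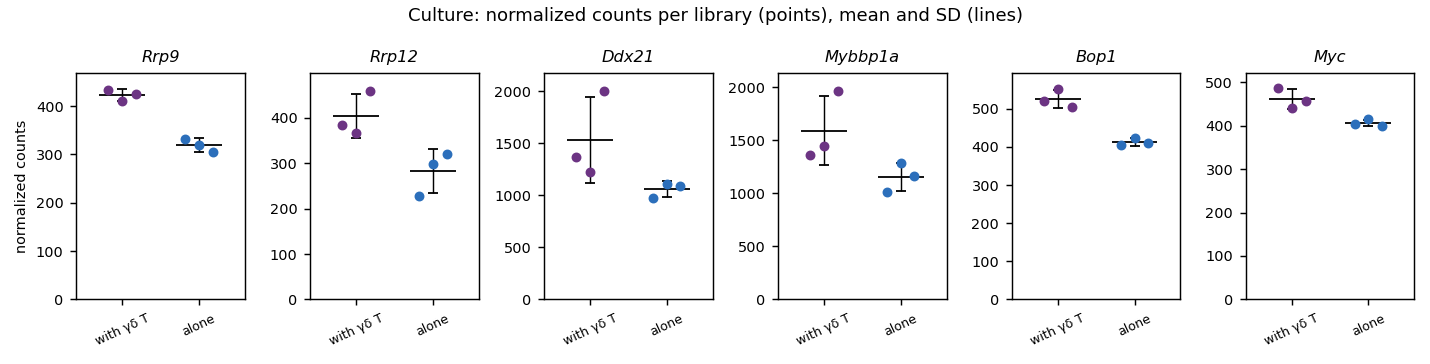
Normalized counts (y axis, from 0) in each culture library (points) for the 5 genes with the smallest p and for Myc, with the mean and SD as lines, in cells kept with γδ T cells and alone (x axis). The groups do not overlap in any of the 6 panels, and replicate 3 with γδ T cells stands highest for Rrp12 (459), Ddx21 (1998) and Mybbp1a (1964).

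The 3 libraries with γδ T cells shared the direction but not the pattern. Relative to the mean of the libraries alone, the median over the 47 genes was 0.32, 0.18 and 0.19 on the log2 scale in replicates 1, 2 and 3 with γδ T cells, and -0.02, 0.03 and 0.02 alone. Replicate 3 had the highest Polr1a count (1018, against 597 and 538 in the other libraries with γδ T cells and 368, 558 and 518 alone) and the lowest Npm1 count (5703, against 8190 and 7810 with γδ T cells and 7439, 7593 and 7040 alone). These 2 genes were chosen after their values were seen. That library's mt-Rnr2 share was 19.9%, where the other 5 culture libraries had 23.5% to 24.4%, and its part in the result was not tested. Without it limma called 3 of the 47 genes, Fbl, which encodes the box C/D methyltransferase fibrillarin, Gnl3 and Nip7, all higher, and 664 of all tested genes (5.36%), with a median of 0.26 over the 47.

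Neighbouring lists also had positive medians, and MYC targets gave calls. Of the 76 other ribosome biogenesis genes 60 had a positive fold change with a median of 0.12, and limma called none of them, with 8 at an unadjusted p under 0.05. Of 29 tested MYC targets outside ribosome assembly 25 had a positive fold change with a median of 0.14, and 3 rose. They were Shmt2 (log2 0.73 ± 0.12, limma adjusted p = 0.0058) and Mthfd2 (0.69 ± 0.15, limma adjusted p = 0.0328), enzymes of mitochondrial one-carbon metabolism, and Slc7a5 (0.69 ± 0.11, limma adjusted p = 0.0078), a transporter of large neutral amino acids. Of 9 tested MAX network genes 7 had a negative fold change, with a median of -0.12, and none passed. The antagonists Mxd4 (-0.39 ± 0.11) and Mxi1 (-0.47 ± 0.14) were the 2 at an unadjusted p under 0.05, both at a limma adjusted p of 0.110. Of 15 proliferation genes 7 had a positive and 8 a negative fold change, with a median of -0.08, and none passed (3 at an unadjusted p under 0.05). Their summed level was 5402 to 6191 normalized counts with γδ T cells, against 5083 to 5809 alone. Of 12 T cell markers 6 had a positive and 6 a negative fold change, with a median of 0.04, and 1 rose, Lck (0.71 ± 0.15, limma adjusted p = 0.0297). The T cell list summed to 1075 to 1454 normalized counts with γδ T cells, against 853 to 978 alone. Of 4 plasma cell markers 1 rose and 1 fell (lowest limma adjusted p = 0.000107), with log2 fold changes between -1.78 and 1.07. The plasma cell list summed to 2745 to 3219 normalized counts with γδ T cells, against 1879 to 3501 alone. Limma called no tested marker of B cells, macrophages and monocytes, neutrophils, or NK, dendritic or erythroid cells. Erythroid markers summed to 324 normalized counts in replicate 1 with γδ T cells and to at most 4.67 in any other culture library. Markers of γδ T cells summed to at most 5.26 normalized counts with γδ T cells and 5.02 alone, with Tcrg-C1, Tcrg-C4 and Trgv2 at 0 in every culture library. The part of any of these markers in the result was not tested.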

How the data were processed

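Total RNA was isolated with RNeasy Plus Micro columns and made into libraries with the SMART-Seq Stranded kit, per the labels' protocols. The submitters' processing notes name bcl2fastq, STAR 2.5.2b and mm10. Which program counted reads, whether it used strand, its annotation and how libraries were scaled is not given in the sources used here. In the 3 deposited tables each gene's signal is a count normalized by the authors, separately for each table. In every library 100% of values were whole multiples of the worth of 1 read (tolerance 0.01), which gave back the reads. Counting errors given in the text cover counting only.

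Tests were made in limma 3.58.1 under R 4.3.3 (lmFit and trended eBayes) from log2(value + 1), over the genes whose table mean was at least 10 (11701, 13364 and 12386 genes in experiment 1, experiment 2 and culture), with Benjamini-Hochberg adjustment over all of them and a threshold of 0.05. The 3 groups of experiment 2 were fitted together. The edgeR 4.0.16 quasi-likelihood test and DESeq2 1.42.0 on the recovered reads were alternatives, as were other pseudocounts (0.5 and 10), filters, scalings, a replicate block and leaving out each library. The limma fit was tested on simulated data. Lists were described by counts and medians, with no set test. Values are given for Myc and for the called genes, or for the 5 with the smallest p where none was called. The genes and lists were chosen with earlier results of these data known. Positions and lengths are from GENCODE M21 (GRCm38) and promoter sequences from RefSeq (GRCm38.p6).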

Additional observations from a re-analysis of the deposited data

Results flagged for a closer look

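In the 5 untreated libraries of experiment 2, 4 of the 47 genes had 1 library far from the other 4. The rule flags about 1 in 20 groups by chance where values are normally distributed. It was not applied to all tested genes, so the count is not read as a result about the 47. Ebna1bp2 had 748 normalized counts in untreated replicate 5, where the others had 838 to 851. Polr1b, also in untreated replicate 5, had 475 normalized counts, where the others had 586.4 to 624.9. Nob1, a nuclease of small subunit maturation, had 338 normalized counts in untreated replicate 7, where the others had 375 to 389. Noc3l, a large subunit assembly gene, had 957 normalized counts in untreated replicate 8, where the others had 705 to 753. None of the 4 genes passed in a comparison of experiment 2.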

How the results depend on the processing

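Leaving out 1 library at a time gave 0 to 10 called genes in experiment 1, where 0% to 9.38% of all tested genes were called. For experiment 2, calls are given with an untreated or a toxin-treated H2B library left out, since leaving out a depleted one left 1 in its group. There were 0 calls in depleted against untreated cells (0.0599% to 0.382% of all genes). In depleted against toxin-treated H2B cells there were 0 to 2 (1.77% to 7.14% of all genes). Toxin-treated H2B against untreated cells gave 1 to 14 (1.47% to 22.4% of all genes). In culture there were 0 to 3 (0.832% to 5.36% of all genes). With any 1 library left out, depleted ones included, the medians of the 47 genes ranged over -0.24 to -0.050 (experiment 1) and 0.20 to 0.29 (culture). In experiment 2 they ranged over -0.074 to -0.020 (depleted against untreated) and -0.010 to 0.042 (depleted against toxin-treated H2B). Without a filter on low values, more genes are tested. Toxin-treated H2B against untreated cells then gave 8 calls (5.96% of all tested genes) and depleted against toxin-treated H2B cells 1 (2.85% of all). In depleted against toxin-treated H2B cells quantile normalization gave 1 call, where 7.52% of all tested genes were called. A fit of its 2 groups gave 0 (3.37% of all) and scaling to total reads 18 (28.2% of all). Scaling to total reads moved the median to -0.084 in depleted against untreated cells of experiment 2, to -0.39 in depleted against toxin-treated H2B cells and to 0.28 in toxin-treated H2B against untreated cells. It turned the sign of Myc in depleted against toxin-treated H2B cells (-0.18) and, in toxin-treated H2B against untreated cells, of Npm1 (0.095), Nip7 (0.025), Wdr12 (0.096), Imp4 (0.056) and Myc (0.19). Myc in depleted against untreated cells of experiment 2 ranged from -0.020 (without untreated replicate 5) to 0.11 (without untreated replicate 8). The cause of these changes was not tested. Same-numbered libraries had correlated deviations of -0.02, -0.04 and 0.05 in experiment 1, -0.07 and -0.11 in experiment 2, and 0.20, -0.04 and 0.23 in culture, where 2 of the 3 pairs deviated together and the third did not. In none of these comparisons did every pair exceed 0.1, so the numbers were not taken to pair the libraries. A replicate block gave 0 calls in both comparisons of depleted with untreated cells, where all genes gave 0% (experiment 1) and 1.14% (experiment 2). In culture it gave 3 (Ddx21, Nolc1 and Rrp12), or 6.38%, where all genes gave 3.62%.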
